A study of Mus musculus with 2 samples.

Results

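The genes of voltage-gated sodium channels, voltage-gated calcium channels and the hyperpolarization-activated HCN channels were examined in hippocampal open chromatin. Members were the protein-coding genes of GENCODE M21 whose symbols are Scn or Hcn followed by a digit, or begin with Cacna1, Cacna2d or Cacnb. The rule, which used names and no measured value, found 36 genes among 21938 protein-coding genes: 10 sodium channel alpha subunits, 4 sodium channel beta subunits, 10 calcium channel alpha1 subunits, 4 alpha2delta subunits, 4 calcium channel beta subunits and 4 HCN channels.

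DNase-seq, in which the nuclease DNase I cuts accessible DNA, had been applied to tissue that the labels call layer of hippocampus, with no layer named, from female B6CASTF1/J mice (a cross of a B6 laboratory strain with CAST) aged 25 days and given no stated treatment. There were 2 libraries, biological replicates 1 and 2 of 1 group. The labels list separate tissue samples and 1 donor entry for both, so the spread between the libraries may be partly technical. With 1 group and 2 libraries no test was made: both values are given, and a count of members stands beside the same count over all protein-coding genes.

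Sodium channels open on depolarization and carry the rising phase of the action potential, with alpha subunits forming the pore and beta subunits modifying gating and cell adhesion. Calcium channels turn depolarization into calcium entry for transmitter release, dendritic excitability and gene regulation, and their alpha2delta and beta subunits govern trafficking and gating. HCN channels open on hyperpolarization and carry the current that sets resting excitability and dendritic integration in hippocampal pyramidal cells. The repressor REST, which keeps neuronal genes silent in other cell types, binds the RE1 element, and sodium channel genes are its textbook targets. CTCF binds a distinct element and helps to form chromatin loops.

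Sequences of these elements at channel genes are shown because the results on footprints and on differences between the libraries turn on them. All are on mm10 and were read from the RefSeq copy of the same build, GRCm38.p6, 5′ to 3′ on the strand of the element. RE1 was sought on both strands as TTCAGCACC, 2 free positions, GGACAG, 1 free position and GCC, with at most 3 mismatches over the 18 fixed letters, and capitals mark the fixed letters that matched. Distances are positive in the direction of transcription.
Scn2a, chr2:65619964-65619984, -797 bp from the nearest start: TTCAGCACCacGGACAGcaCC
Scn10a, chr9:119706898-119706918, inside the gene: TTCAGCACCacGGACAGaGCa
Cacna1b, chr2:24762083-24762103, 954 bp from the nearest start: gTCAGCACCacGGACAGctgC
Cacna1i, chr15:80277818-80277838, -9410 bp from the nearest start: aTCAGCACCacGGACAGcGaC
Hcn2, chr10:79718160-79718180, 1536 bp from the start: TTCAGgACCacGGACAGctCC
Hcn3, chr3:89159337-89159357, 633 bp from the nearest start: TTCAGCACCacGGACAGcaaa
Hcn4, chr9:58841859-58841879, 18457 bp from the start: TTCAGCACCatGGACAGtGtC

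The core of the CTCF motif, 14 letters long and sought on both strands with at most 1 mismatch, lay at promoter footprints of 7 members, where a footprint is a short stretch that DNase I cut less than its surroundings. Capitals mark the core, shown with 8 bases either side for 5 of them.
Scn1a, chr2:66410169-66410198: cgatgtagCCACTAGATGGCACtgtaacgt
Scn3a, chr2:65567572-65567601: tgtgtctgCCAGTAGATGGCAGtaacacgt
Cacna1a, chr8:84639395-84639424: gcggcgagCCGCCAGGGGGCGCtgcgggac
Cacna1h, chr17:25434064-25434093: agagcacgGCAGCAGGGGGCGCtcgcaggg
Cacnb3, chr15:98631580-98631609: gactcctgCCAGCAGGAGGCGCtgccgggg

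The strict peak list, the shorter of the 2 lists deposited for each library, held 61466 peaks in replicate 1 and 50379 in replicate 2, and depth is unknown because no tag counts were used. Promoter peaks in both libraries lay at 4 of 4 neuronal markers and at 5 of 7 markers of hippocampal excitatory neurons. Of those 7, Slc17a7 had a peak in replicate 1 alone and Prox1 in replicate 2 alone. Interneuron markers had such peaks at 0 of 5 genes, astrocyte markers at 1 of 3 (Gfap), oligodendrocyte markers at 0 of 3, microglial markers at 0 of 3, and endothelial, muscle and liver markers at 0 of 2, 0 of 2 and 0 of 1. The interneuron marker Pvalb (1.54), the astrocyte marker Aldh1l1 (0.676) and the oligodendrocyte marker Mbp (1.40) had a strict peak in replicate 1 alone. Each also had peaks in both longer lists, as did the microglial marker Csf1r.

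A promoter was called open when strict peaks of both libraries lay within 500 bp of an annotated start. Of the 36 channel genes, 19 were open (52.8%), beside 54.2% of all protein-coding genes, so the share was near the background. A peak in replicate 1 alone was found at 7 members, beside a background of 6.00%, no member had a peak in replicate 2 alone, and 10 members had neither (background 39.2%). In the longer lists 26 members (72.2%) had a peak in both libraries, beside 59.7% of all genes. The members that had no promoter peak in any list included Scn4a, Scn10a, Scn11a, Scn4b, Cacna1f and Cacna1s.

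Open channel promoters had lower signal than open promoters at large. Their median peak signal was 1.85 in replicate 1 and 0.960 in replicate 2, beside 4.30 and 1.80 over all 11890 open promoters, and 3.10 and 1.31 over open promoters of genes of 100 kb or more. Cacna1a, Cacna1b and Cacna1h were among the members above the all-gene median in replicate 1, and Cacna1a and Cacna1b were also above it in replicate 2. All 19 had the higher signal in replicate 1, as did 99.4% of all open promoters, with a median log2 ratio of replicate 1 to replicate 2 of 1.06 for members and 1.24 for all. The signal scale of the authors' peaks is not stated, and in bulk tissue fewer cells of a type and less accessibility per cell cannot be told apart.

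**Figure D1:**
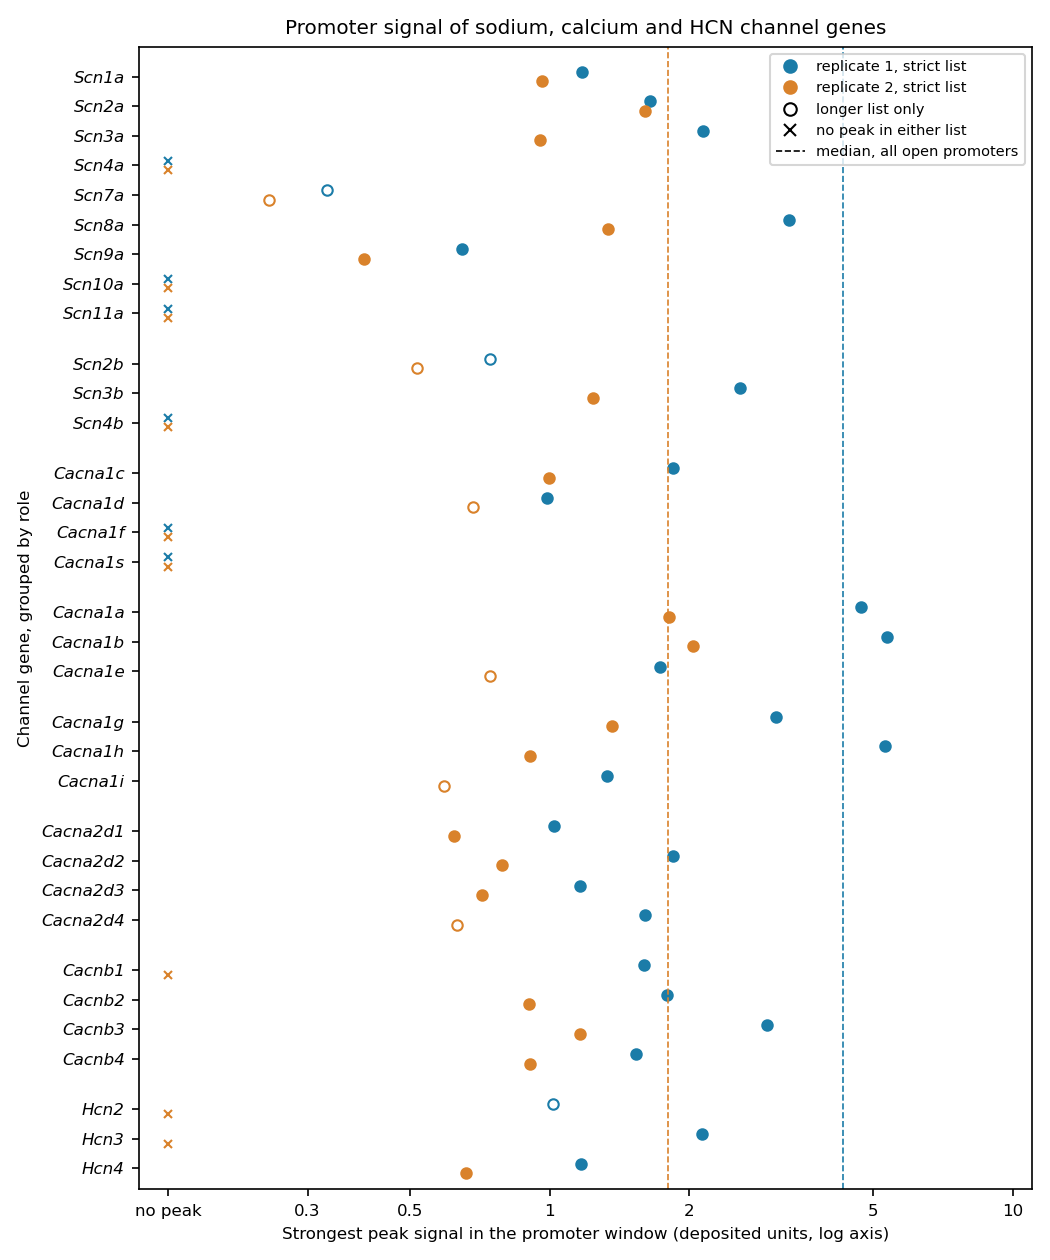
Strongest promoter peak signal (log axis, deposited units) of 33 channel genes in replicates 1 and 2, with filled points for the strict list, hollow points for peaks of the longer list only and crosses for no peak; dashed lines are the medians of all open promoters, 4.30 in replicate 1 and 1.80 in replicate 2. Most filled points lie left of the line of their own library.

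Promoters differed with gene length and base composition. Of the 20 channel genes of 100 kb or more, 14 were open (70%), beside 76.0% of all genes of that length. Of the 16 shorter ones, 5 were open (31.3%), beside 51.4%. Where the ratio of observed to expected CpG around the outermost start was 0.6 or more, 9 of 15 members were open (60%), beside 86.8% of all such genes. Below 0.6, 10 of 21 were open (47.6%), beside 26.5%. Of these 10, Scn2a, Scn3a, Scn9a and Scn3b were open in the window of that outermost start. So was Scn8a, but its window merges 8 starts. The shared regions of Scn8a were centred 0.654 kb and 1.083 kb from the outermost start, beyond the stretch measured for CpG. The other 5 (Scn1a, Cacna1c, Cacna1a, Cacnb2 and Cacnb3) were open at another start, whose CpG ratio was not measured, so the share is not one of CpG-poor open promoters.

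Among sodium channel alpha subunits, 5 of 10 were open. Scn8a, the alpha subunit concentrated at mature axon initial segments and nodes, gave a signal of 3.28 in replicate 1, the highest of the class there, and 1.34 in replicate 2, where Scn2a was higher. Scn3a, known mainly from the embryonic and newborn brain, gave 2.14 and 0.953. Both lie in the lower part of all open promoters: Scn8a stood at percentiles 34.4 and 31.5, and Scn3a at 17.98 and 17.35.

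Scn2a, an alpha subunit of excitatory neurons, was the member on which the libraries differed least. Its outermost start window gave 1.24 and 0.938, and a second window 47.9 kb further in gave 1.65 and 1.61. The log2 ratio of the strongest values was 0.04, at percentile 0.673 of all open promoters, so the excess of replicate 1 seen at nearly every promoter was almost absent there. Scn2a was also 1 of 3 members with more than 1 open start window, beside Cacna2d3 and Cacnb2 (8.33% of members, background 4.43%). All 3 are 100 kb or longer, and among genes of that length the share was 15% of members beside 13.5% of all, so it was near the background.

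Scn1a, the alpha subunit on which many inhibitory interneurons depend, was open at an inner start and not at its outermost one. The window 30.8 kb from the outermost start gave 1.18 and 0.960, whereas the outermost window had a peak of 0.706 in replicate 1 and none in replicate 2. The inner window is shared with Gm13630 and the outermost one with Gm13629. Its log2 ratio was low as well, at 0.29 (percentile 1.83). Interneuron marker promoters were not open in both libraries, as given above, and whether the level at Scn1a relates to the share of interneurons was not tested.

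Other alpha subunits are known mainly outside the brain. Scn9a, a channel of peripheral sensory and sympathetic neurons, was open with the weakest signal of any open member, 0.647 and 0.398, both below the first percentile of open promoters. Scn7a, an atypical sodium-sensing channel, had no strict peak and gave 0.331 and 0.248 in the longer lists. Scn4a of skeletal muscle, and Scn10a and Scn11a of nociceptors had no peak, and no base of their windows appeared in the deposited cut-rate lists of either library. Of the 9 members known mainly from muscle, heart, retina, glia-like or sensory cells, 1 was open in both libraries (Scn9a) and Cacna2d4 had a peak in replicate 1 alone, against 18 open of the other 27. The open shares were 11.1% and 66.7%, beside 54.2% of all protein-coding genes. The 9 also had a lower median CpG ratio at the outermost start, 0.263 beside 0.610 for the 27. Whether place of expression or base composition relates to the split was not tested.

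Of the sodium channel beta subunits, which attach to the pore and act as adhesion molecules, Scn3b was open, with 2.58 and 1.24. Scn2b appeared in the longer lists only, with 0.743 and 0.518. Scn4b, known from neurons with fast resurgent firing, had no peak.

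The L-type alpha1 subunits couple activity to gene regulation in neurons and to contraction in muscle. Cacna1c was the only one open, with 1.85 and 0.998 at a window 87.8 kb inside its outermost start, where no peak was found. Cacna1d had a peak in replicate 1 alone (0.985, also at an inner window, 138.0 kb in), with 0.683 in the longer list of replicate 2. Cacna1s of skeletal muscle and Cacna1f of the retina had none.

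The P/Q-, N- and R-type alpha1 subunits drive transmitter release. Cacna1b, the N-type pore, had the strongest promoter of all 36 members, with 5.34 in replicate 1 and 2.04 in replicate 2, at percentiles 65.4 and 59.3 of open promoters. Cacna1e, the R-type pore, had peaks in replicate 1 alone at 2 windows (1.50 and 1.73), and the longer list of replicate 2 gave 0.743.

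Cacna1a, the P/Q-type pore, was called open with 4.69 and 1.81 through a single noncoding transcript start 250.6 kb from the outermost one, near the 3′ end of the gene. The window of its coding starts had no strict peak, although a region 0.823 kb away, chr8:84414262-84414820, gave 1.64 and 0.773. With starts of transcripts tagged basic only, Cacna1a was not open.

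Of the T-type alpha1 subunits, which open near rest and support burst firing, Cacna1g gave 3.08 and 1.37. Cacna1h gave 5.29 and 0.908, a log2 ratio of 2.54 that stood at percentile 99.6 of all open promoters. Its promoter ranked among the stronger ones in replicate 1 (percentile 64.6) and among the weak ones in replicate 2 (percentile 15.6). Cacna1i had a peak in replicate 1 alone (1.33), with 0.593 in the longer list of replicate 2.

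Among the alpha2delta subunits, which carry the channels to the membrane and of which the first pair are gabapentin targets, 3 of 4 were open. Cacna2d1 gave 1.02 and 0.623. Cacna2d2 gave 1.85 and 0.788, but at a noncoding start 127.0 kb in, while the window of its coding starts had 0.684 in replicate 1 and no peak in replicate 2. Cacna2d3 had 2 open windows 752.4 kb apart: the outer gave 1.16 and 0.540, and the inner 0.640 and 0.713, so replicate 1 was higher at the outer and replicate 2 at the inner. In the outer window the peaks of the libraries did not overlap, so those values are not of a single shared region. Cacna2d4, known from photoreceptors, had a peak in replicate 1 alone (1.60), at an inner start window shared with Lrtm2.

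Of the calcium channel beta subunits, cytoplasmic partners that promote surface expression, Cacnb2, Cacnb3 and Cacnb4 were open. Cacnb2 gave 1.79 and 0.900 and a second open window at 136.1 kb, with 1.04 and 0.660, that is shared with Gm10848. Cacnb3 had 2.95 in replicate 1 alone at its outermost window and 2.68 and 1.16 at a window 3.93 kb in. Cacnb4 gave 1.54 and 0.908 at a window 118.3 kb in, whereas its outermost window had 0.816 in replicate 1 alone. Cacnb1, the beta subunit of the skeletal muscle channel, which the brain also expresses, had a peak in replicate 1 alone (1.60), and no base of its windows was listed in replicate 2. The window with that peak is shared with Gm11629.

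Among the HCN channels, Hcn4, the pacemaker channel of the heart and thalamus, was open with 1.17 and 0.660. Hcn3 had a peak in replicate 1 alone (2.13). Hcn2, broadly expressed in brain, had no strict peak and gave 1.01 in the longer list of replicate 1 alone. Both Hcn2 and Hcn4 have CpG-rich starts, with ratios of 0.869 and 0.870.

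Counting these starts together, 7 open members were not open at their outermost start window: Scn1a, Cacna1c, Cacna1a, Cacna2d2, Cacnb2, Cacnb4 and, the only one under 100 kb, Cacnb3. Among open genes of 100 kb or more with at least 2 windows, the other 6 made up 46.2% of 13 members, beside 16.5% of 1618 protein-coding genes. This count was made after the values had been seen. Members of 100 kb or more had a median of 5 start windows, beside 3 for all genes of that length, so they had more inner starts at which to be open. Cacna1a and Cacna2d2 were open only through noncoding starts and were not open with starts of transcripts tagged basic. The outermost start of Cacnb2 is noncoding, and its open coding window begins only 1.22 kb further in.

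Footprints of both libraries that overlapped by at least 50% of the shorter one lay in promoter windows of 18 members (50%), beside 49.5% of all genes. There were 45 such footprints at members, and 10 held the CTCF core (22.2%), beside 3.01% of 30297 shared promoter footprints. By gene, 7 of the 18 members held one (38.9%), beside 7.31% of 10870 genes. The core was chosen for counting after the footprints had been read, so the difference is a description of these members.

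In Scn1a and Scn3a the core had no mismatch. The footprints covered all 14 bases of the core in replicate 1 at each of the 7 genes, and between 11 and 14 bases in replicate 2. Measured from the nearest start in the direction of transcription, the core lay at 40 bp in Scn3a. In Scn1a it lay at -120 bp from the inner start that was open, and in Cacnb3 and Cacna1h at -210 bp and -296 bp. In Cacna1a it lay 419 bp past the noncoding start at which the gene was called open.

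**Figure D2:**
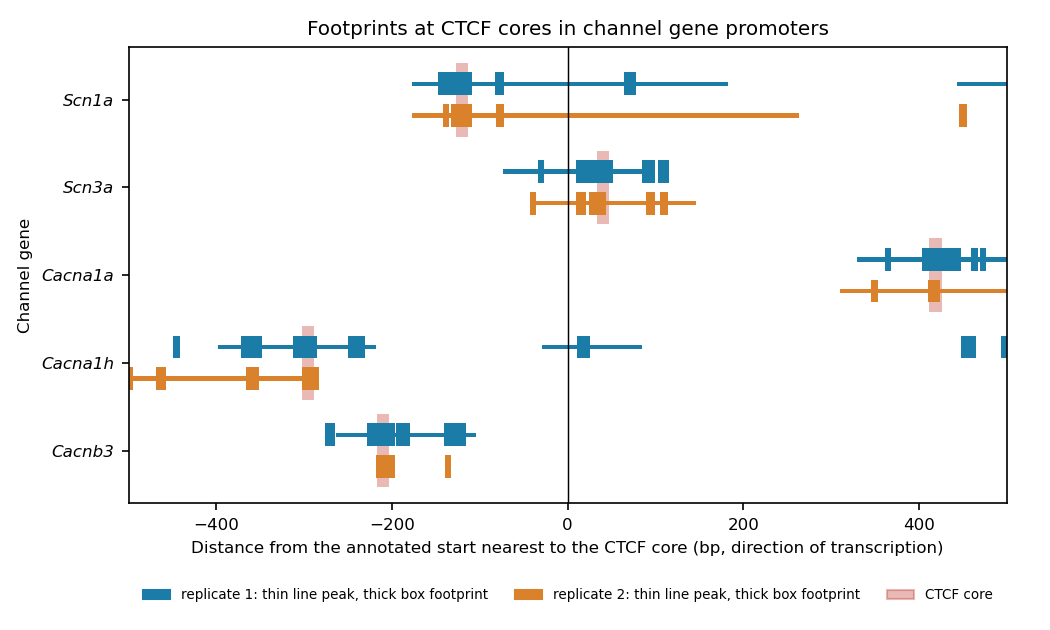
Peaks (thin lines) and footprints (thick boxes) of replicates 1 and 2 within 500 bp of the annotated start nearest to the CTCF core, drawn in the direction of transcription for 5 of the 7 channel genes, with the core shaded. A footprint of each library meets the core in every gene shown, and at Cacnb3 the footprint of replicate 2 lies outside any strict peak.

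RE1 showed a difference between the libraries. There were 36 matches in the surroundings of 26 members, where surroundings are the gene body and 50 kb either side. A strict peak of replicate 1 met 10 of them (27.8%), beside 9.02% of the 3637 matches in the genome. A strict peak of replicate 2 met 2 (5.56%), beside 2.61%. The 2 sites with both peaks (background 2.25%) were the one at Cacna1b and one that reaches into the promoter region of Syp, chrX:7638737-7638757, downstream of Cacna1f. The other 8 (22.2%, background 6.76%) had a peak in replicate 1 alone. The 2 sets of matches are not alike. At most 1 mismatch was found in 6 of the 36 and in 196 of the 3637, and the genome set includes sequence far from genes. With at most 2 mismatches, replicate 1 peaks met 58.3% of 12 matches near members and 24.9% of 796 in the genome. The comparison by library was added after the values had been seen.

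At the match before Scn2a, which has 1 mismatch, replicate 1 had a peak of 0.927 and replicate 2 had no peak in either list, whereas the outermost start window of Scn2a, which the match precedes, had peaks of 1.24 and 0.938. Hcn2, whose promoter was not open, had 1.57 in replicate 1 and none in replicate 2 at its match. Hcn3 had 1.07, Hcn4 1.18, Cacna1i 2.16 and Scn10a 1.44, all in replicate 1 alone. Cacna1a had 2 such matches inside the gene, with 0.971 and 1.07 in replicate 1. Hcn2, Hcn3 and Hcn4, and the sensory channel gene Scn10a, thus each had a replicate 1 peak on an RE1 match.

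Replicate 1 also had footprints on 10 of the 36 matches (27.8%, background 10.3%), including the longer-list peak inside Cacna1h (0.779), and replicate 2 on 1. That 1 was at Cacna1b, whose match lay in a promoter region with 1.64 and 0.855, and the footprints covered 13 of its 21 bases in replicate 1 and 5 in replicate 2. It was the only match held whole by a region shared by both libraries, 1 of 201 regions near members, beside 0.253% of all 37119.

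The same held beyond the channel genes. Over the genome, 25.0% of the RE1 matches with a replicate 1 peak also had a replicate 2 peak, whereas 62.9% of all strict peaks of replicate 1 overlapped 1 of replicate 2. These 2 shares are unlike measures. The first asks for peaks of both libraries on the same 21 bases, the second for any overlap of whole peaks, and peak signal was not matched. Of the 196 matches with at most 1 mismatch, 37.2% had a peak in replicate 1 and 7.14% in replicate 2. For members the counts at that setting were 4 and 1 of 6. Whether cell composition, dissection or library preparation moved with this difference was not tested.

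**Figure D3:**
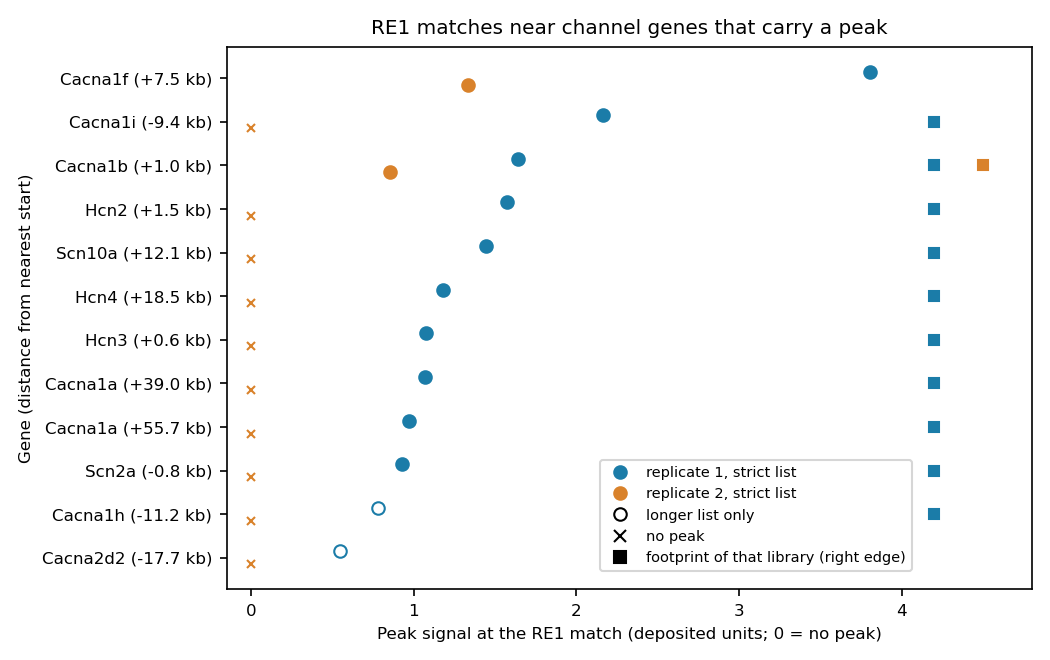
Peak signal (deposited units) at the 12 RE1 matches near channel genes that had a peak in any list, with filled points for strict peaks, hollow points for the longer list, crosses at 0 for no peak and squares at the right for a footprint of that library; distances are from the nearest start. Replicate 2 has a peak at Cacna1b and Cacna1f only and a footprint at Cacna1b only.

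Away from starts, 119 shared regions outside every promoter window lay in the surroundings of channel genes, 9 of them near more than 1 member. Introns of members held 60, exons 3 and flanks 56, and 22 of the 119 were covered by a gene that is no member. All members but Scn11a had at least 1 (background 72.4%), with a median of 3 per member and 1 per protein-coding gene. Per Mb of surroundings the medians were 13.3 and 9.57. For genes of 100 kb or more they were 9.49 for members and 8.94 for all, and for shorter genes 19.5 and 9.62.

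The most regions lay near Cacna1c, with 12, of which 10 lay in its introns, followed by Cacna1a and Cacna2d2 with 8 each and Cacna1h with 7, or 43.9 per Mb. These 4 stood at or above percentile 98.1 of all genes by count, which rises with gene length. Per Mb the percentiles were 65.3 for Cacna1c, 79.5 for Cacna1a, 92.3 for Cacna2d2 and 96.8 for Cacna1h. None lay near Scn11a, and Scn2a, Scn7a, Scn9a and Cacnb3 were among the members with 1. Of the 7 members of 300 kb or more, only Cacna1c exceeded the upper quartile of all genes of that length, which was 6, and their median was 5 beside 4.

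**Figure D4:**
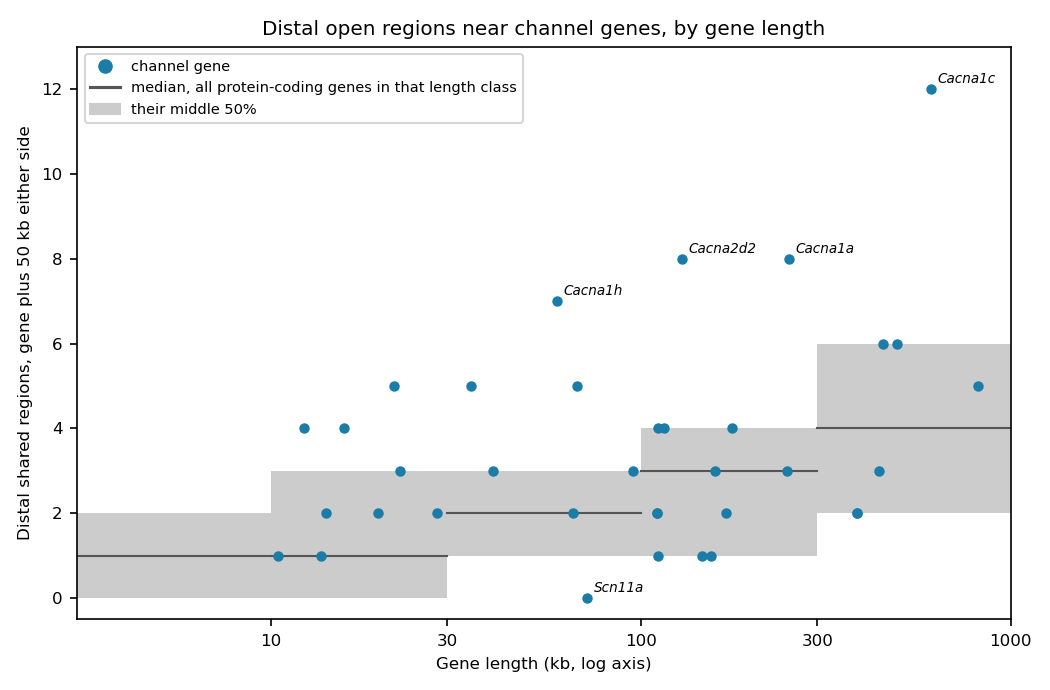
Number of distal shared regions in the gene body and 50 kb either side against gene length (log axis) for the 36 channel genes, with the median (dark line) and the middle 50% (grey) of all protein-coding genes in each length class. Cacna1c with 12 regions, Cacna1a and Cacna2d2 with 8 and Cacna1h with 7 lie furthest above the grey band, and Scn11a with 0 lies below it.

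Distal regions near channel genes were stronger than distal regions at large: the median signal was 2.84 in replicate 1 and 0.990 in replicate 2, beside 1.98 and 0.855. Of the 119, 117 were higher in replicate 1 (98.3%, beside 94.9% of all), and 99 held a shared footprint (83.2%, beside 81.1%). By the mean of the signal ranks of both libraries, the strongest inside a channel gene was in an intron of Cacna2d4, chr6:119348341-119348540, with 9.95 and 2.17. It was followed by an exonic region of Cacna2d2, chr9:107514681-107514860, with 8.89 and 1.78, and an intronic region of Cacna1c, chr6:119104361-119104560, 3.51 kb from a start, with 8.82 and 1.67. All 3 held a CTCF core.

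Outside the gene bodies the strongest region lay 24.2 kb from the nearest Cacnb1 start, downstream of the gene, chr11:97988201-97988460, with 9.45 and 3.18 and no CTCF core. Downstream of Cacna1a, chr8:84663961-84664180 gave 5.56 and 2.83, also with no core. It lay 25.1 kb from the nearest Cacna1a start, between promoter regions of Ier2 and Gm26664. Regions near Scn2a were weak, the only one giving 0.838 and 0.743, and so were those near Scn1a (0.728 and 0.533 at the strongest) and Scn3a (1.27 and 1.14). The alpha subunit genes Scn1a, Scn2a, Scn3a, Scn7a and Scn9a lie together on chromosome 2, and none of the 5 had a distal region above 1.27 in replicate 1.

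Some members with no open promoter had distal regions in or near them. An intron of the muscle gene Cacna1s held one at chr1:136061561-136061740 with 7.03 in replicate 1 and 1.61 in replicate 2, and no CTCF core. Upstream of Scn4a, inside Prr29, chr11:106366341-106366620 gave 7.11 and 1.25, with a core. In the beta subunit pair that shares surroundings on chromosome 9, a region in an intron of Scn4b, chr9:45146341-45146560, with 5.88 and 1.53, was the strongest for both Scn2b and Scn4b.

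Among the release-type and T-type pores, the strongest region of Cacna1e lay in an intron and gave 7.46 and 1.60, and that of Cacna1b lay downstream and gave 3.93 and 0.833. Thus Cacna1b, with the strongest channel promoter, had a weaker strongest distal region than Cacna1e, whose promoter had no replicate 2 peak in the strict list. The other regions of these 2 genes overlapped in signal. The strongest near Cacna1g lay 6.79 kb from a start, downstream of the gene, with 8.35 and 1.58, near Cacna1h in an intron with 7.65 and 1.39, and near Cacna1i upstream, inside Rps19bp1, with 8.57 and 1.71. The L-type gene Cacna1d had 4.69 and 1.79 in an intron, and Cacna1f 3.90 and 1.48 downstream, inside Magix. All of these but the one of Cacna1b held a CTCF core.

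For the remaining subunits the strongest regions were intronic in Cacna2d1 (3.54 and 1.27), Cacna2d3 (7.48 and 1.15), Cacnb2 (2.47 and 0.728) and Cacnb4 (5.49 and 1.53). Upstream of Cacnb3 the value was 6.85 and 1.50, and downstream of Scn3b, inside Gramd1b, 5.82 and 1.64. The HCN genes gave 6.10 and 1.10 upstream of Hcn2, 4.02 kb from its start, 4.01 and 1.14 upstream of Hcn3, and 2.21 and 0.863 downstream of Hcn4. Hcn4, the open one of these 3, thus had the lowest of these distal values in both libraries. Scn8a had 2.07 and 1.57 in an intron, and Scn7a 0.927 and 0.893 upstream.

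A CTCF core within the central 200 bp was found in 55 of the 119 distal regions (46.2%, beside 38.0% of 21904). Median signals were 4.97 and 1.21 with a core and 1.57 and 0.870 without. The median log2 ratio was 2.04 with a core and 0.85 without. Over all distal regions the ratios were 1.85 with a core and 0.87 without, so the gap between the libraries was wider at CTCF cores throughout the genome. Median signals over all distal regions were also higher with a core, 3.60 and 1.01, than without, 1.37 and 0.773. Among the 29 regions near channel genes strongest by replicate 1 signal 23 held a core (79.3%), and among the other 90 there were 32 (35.6%). That split by strength was not made over all distal regions. By gene, the core was in 6 of 8 regions near Cacna2d2, 5 of 7 near Cacna1h, 4 of 8 near Cacna1a and 4 of 12 near Cacna1c.

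**Figure D5:**
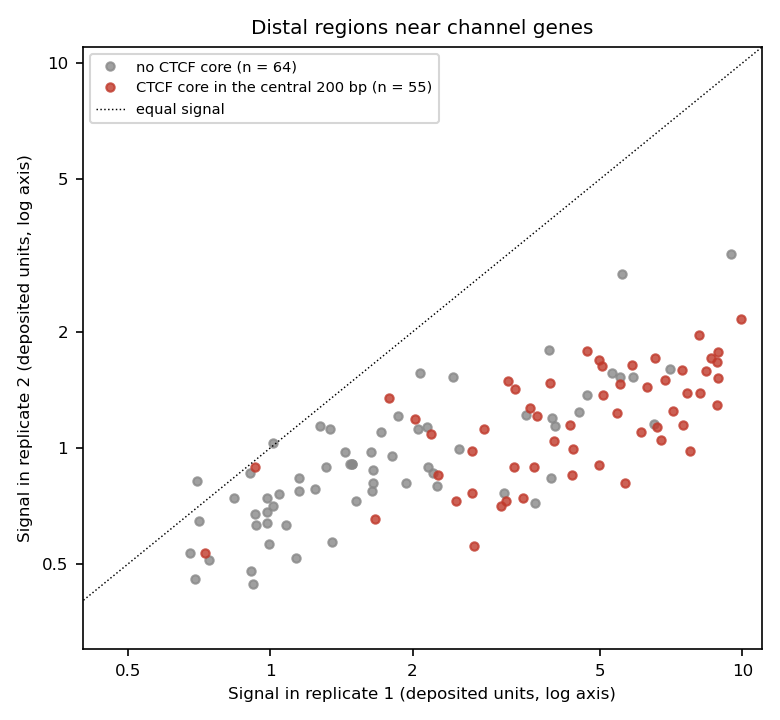
Peak signal of replicate 2 against replicate 1 (both log axes, deposited units) for the 119 distal regions near channel genes, coloured by whether a CTCF core lies in the central 200 bp; the dotted line marks equal signal. Regions with a core lie further below the line, with medians of 4.97 and 1.21, than those without, with 1.57 and 0.870.

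Genes that work with these channels were counted by the same rule. Of 41 listed accessory and related genes 40 were found, and 25 were open (62.5%, beside 54.2% of all protein-coding genes). Of the rest, 4 had a peak in replicate 1 alone (background 6.00%) and 11 had none (background 39.2%). Ank3, which anchors sodium channels at the axon initial segment, gave 1.57 and 0.923 and had 12 distal regions. It is 628.7 kb long, and its distal regions per Mb stood at percentile 64.1 of all genes. Sptbn4, the spectrin of the same site, gave 3.66 and 2.55, and Cacng8, a TARP that modulates AMPA receptors, 6.96 and 1.68. Pex5l, the HCN trafficking partner TRIP8b, gave 1.40 and 0.930. Potassium channel genes with Kcn symbols were open at 47 of 94 (50%), with medians of 1.96 and 0.975 that lay near those of the channel genes described here.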

How the data were processed

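DNase-seq peaks, footprints and cut-rate lists of 2 libraries were used as deposited on mm10, per the labels. The authors' peak files carry a signal value per peak, whose scaling is not given in the sources used here, so signals are set side by side without normalisation. The cut-rate and footprint files hold deposited p-values given as false discovery rates, constant at 0.01 for footprints. Neither aligner, peak caller nor depth is given in the sources used here, nor how tags from CAST alleles were mapped. The precision of a value is limited by having 2 libraries, and no interval could be given.

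Members, lists and alternatives were chosen with earlier results of these data known. Members are named except for some that, with 1 further site, are not reported here by name but stay in the counts; distal regions were named by signal rank. The strict list was the one with fewer rows. A promoter value is the strongest peak touching a window of 500 bp either side of a start. Shared regions are connected peaks of both libraries, joined at 1 bp, and distal ones touch no promoter window of any coding or long noncoding gene. The CpG ratio used 1000 bp around the outermost start. CTCF cores were sought within 10 bases of a footprint. Sequences came from GRCm38.p6, and no deposited row ended beyond its chromosomes. Counting was tested on simulated data. Alternatives changed the peak list, window, starts, flank, overlap, mismatches and libraries. Python 3.11.15, numpy 2.4.6, pandas 2.3.3, pysam 0.24.0, bedtools 2.31.1 and matplotlib 3.10.9 were used.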

Additional observations from a re-analysis of the deposited data

How the results depend on the processing

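No paired analysis was possible because both libraries form a single group. The count of open channel promoters, 19, was 26 in the longer lists, 13 in the stronger 50% of each strict list, 15 with windows of 250 bp, 24 with 2000 bp, 17 with basic transcript starts, and between 19 and 26 with 1 library left out. Windows of 250 bp lost Cacna1c, Cacna1a, Cacna1h and Hcn4. Basic starts lost Cacna1a and Cacna2d2. The 119 distal regions became 232 with the longer lists, 79 with the stronger 50% and 63 without flanks, which cover less sequence, and between 161 (replicate 2 alone) and 248 (replicate 1 alone) with 1 library left out. Shared regions with a whole RE1 match fell from 1 to 0 at 2 mismatches. RE1 matches with a peak of replicate 1 fell from 10 to 4 at 1 mismatch, and those with a peak of replicate 2 from 2 to 1 at 2 mismatches and 1 at 1 mismatch. Members with a CTCF core at a promoter footprint numbered 3 without a mismatch and 8 with 2 mismatches. Alternatives for RE1 by library and for the CTCF core were added after the data had been seen. Peaks under the threshold of a library may be missing for want of depth, which is unknown.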
